A study of Mus musculus with 12 samples.

Results

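Guanylate-binding proteins are large GTPases made by cells that receive interferon, and this account follows the 6 mouse genes of the family that had an array row of their own: Gbp2, Gbp3, Gbp5, Gbp7, Gbp8 and Gbp11. They were chosen by family name, with earlier results of these data in view. The falls of Gbp2 and Gbp11 after CL316243 in wild-type brown fat were already known, so that comparison is described here without a test. The 6 genes stand among 20259 genes with a row of their own, and 5 further family genes of the 11 in the probe table (Gbp2b, Gbp4, Gbp6, Gbp9 and Gbp10) had none. The tissue was interscapular brown fat from 12 C57BL/6 females, 12 weeks old and kept for 2 weeks at 30 °C, whose RNA was read on 1 exon array per mouse, with 3 mice in each of 4 groups. The groups were Adiponectin-Cre; Cpt2f/f mice (knockouts) injected with CL316243, knockouts injected with saline, Cpt2f/f controls without Cre (called wild type) injected with CL316243, and such wild types injected with saline. Both alleles of Cpt2 were therefore floxed in all 12 mice, and Cre under the adiponectin promoter acts in adipocytes, so immune, endothelial and other cells of knockout tissue keep the gene. CL316243, which activates the β3-adrenergic receptor of adipocytes, was given intraperitoneally at 10 mg/kg, and tissue was taken 3 h after either injection.

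Interferon gamma, released mainly by T and NK cells, binds the receptor made of Ifngr1 and Ifngr2. Through the kinases Jak1 and Jak2 it acts on GAS elements in gene promoters and raises Irf1. Type I interferons act through Ifnar1 and Ifnar2, with Stat2 and Irf9, on ISRE elements. The GTPases made in response coat the vacuoles of intracellular microbes and help to open them. Among the members, Gbp2 and Gbp7 restrict Toxoplasma in mice and Gbp5 promotes inflammasome assembly. In the RefSeq gene table (GRCm38.p6) Gbp5, Gbp7, Gbp3 and Gbp2 lie in this order in 1 cluster on chromosome 3, with Gbp2b between Gbp3 and Gbp2, while Gbp8 and Gbp11 lie at the ends of a cluster on chromosome 5 that also holds Gbp9, Gbp4, Gbp10 and Gbp6. RefSeq lists Gbp11 as a transcribed pseudogene and the other 5 members as protein coding. The genes are close copies of each other, so which copies a probe set reads is uncertain.

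The 250 bases before the RefSeq start of each chromosome 3 member are shown, because interferon-activated factors act through elements of this kind. Of the first Gbp3 start and the only listed start of the others, all 4 windows hold the ISRE letters GAAANNGAAA and those of Gbp5 and Gbp7 also hold the GAS letters TTCNNNGAA. Capitals mark these matches, found on either strand of GRCm38.p6. All windows are on the plus strand: Gbp5 at chr3:142496684-142496933, Gbp7 at chr3:142530086-142530335, Gbp3 at chr3:142559794-142560043 and Gbp2 at chr3:142620413-142620662.
Gbp5: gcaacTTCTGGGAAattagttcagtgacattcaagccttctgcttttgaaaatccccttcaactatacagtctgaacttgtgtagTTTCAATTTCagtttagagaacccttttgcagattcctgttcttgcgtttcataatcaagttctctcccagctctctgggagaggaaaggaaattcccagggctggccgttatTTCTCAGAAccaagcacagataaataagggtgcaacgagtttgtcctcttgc
Gbp7: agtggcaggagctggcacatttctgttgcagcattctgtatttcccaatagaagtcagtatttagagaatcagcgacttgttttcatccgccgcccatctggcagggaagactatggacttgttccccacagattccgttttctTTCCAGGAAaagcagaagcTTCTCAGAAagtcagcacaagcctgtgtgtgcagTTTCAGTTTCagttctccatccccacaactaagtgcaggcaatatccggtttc
Gbp3: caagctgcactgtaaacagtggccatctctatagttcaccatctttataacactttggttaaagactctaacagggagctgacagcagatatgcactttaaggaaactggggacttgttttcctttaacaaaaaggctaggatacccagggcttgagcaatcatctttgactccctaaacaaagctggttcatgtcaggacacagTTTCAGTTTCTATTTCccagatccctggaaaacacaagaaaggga
Gbp2: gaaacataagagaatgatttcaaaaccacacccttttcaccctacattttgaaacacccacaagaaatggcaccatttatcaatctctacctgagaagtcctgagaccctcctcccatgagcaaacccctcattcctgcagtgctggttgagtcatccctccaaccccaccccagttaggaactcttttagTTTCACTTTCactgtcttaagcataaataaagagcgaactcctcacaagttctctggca
Counted in bases from the start, the ISRE match lay at -59 to -50 in Gbp2, at -53 to -44 in Gbp7 and at -165 to -156 in Gbp5. Gbp3 had 2 ISRE matches that overlap, at -45 to -36 and -39 to -30 from its first start, and a second listed start of Gbp3 had no match in its 250 bases. The GAS matches lay at -245 to -237 and -52 to -44 in Gbp5, and at -106 to -98 and -87 to -79 in Gbp7, and none overlapped an ISRE match. Among 32851 mouse promoter windows of this length, 2.98% held the ISRE letters, 7.02% the GAS letters and 0.332% both. The cAMP response element TGACGTCA, present in 1.55% of the windows, was not among the letters of these 4. A match describes the sequence only, since binding was not measured.

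Signals are log2 values, so a difference of 1 is a doubling of signal. All 6 members passed the filter on dim genes, which asked for a signal above the 25th percentile of named genes in at least 3 arrays; Gbp8 passed it in 10 of 12 arrays and the others in 12. The adipocyte gene Adipoq had log2 signals of 12.0 to 12.4 in knockout and 11.3 to 12.1 in wild-type arrays. Cpt2 was lower in knockouts, by -0.75 ± 0.10 log2 units (standard error) whether CL316243 (adjusted p = 3.86e-04) or saline (adjusted p = 0.00207) had been given, and every knockout array lay below every wild-type array. Where the probes of Cpt2 lie relative to the deleted part was not analysed here. A pair of arrays stood apart. Knockout saline array 1 had a Ucp1 signal of 8.39, against 11.5 and 12.3 in the other knockout saline arrays. Wild-type saline array 2 had the highest value of its group for 6 of 6 members. For the members, the list counts and the list genes named with a call, values without these arrays are given where a call ends or a count moves by over 1.5 times.

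Every member had its lowest group mean in wild types after CL316243 and its highest in wild types after saline, with both knockout groups between them. The order from high to low was wild type saline, knockout saline, knockout CL316243 and wild type CL316243 for 6 of 6 members. Without wild-type saline array 2, the knockout saline mean was above the wild-type saline mean for 5 of 6 members. The order then held for Gbp2 alone. The saline groups of the 2 genotypes overlapped for 5 of 6 members, all but Gbp2, so these neighbours did not differ beyond the spread of their arrays. The 2 knockout groups overlapped only for Gbp8, and so did the 2 CL316243 groups. This order contains the known falls and is a description. In whole tissue, fewer cells of a type and less RNA per cell cannot be told apart.

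**Figure D1:**
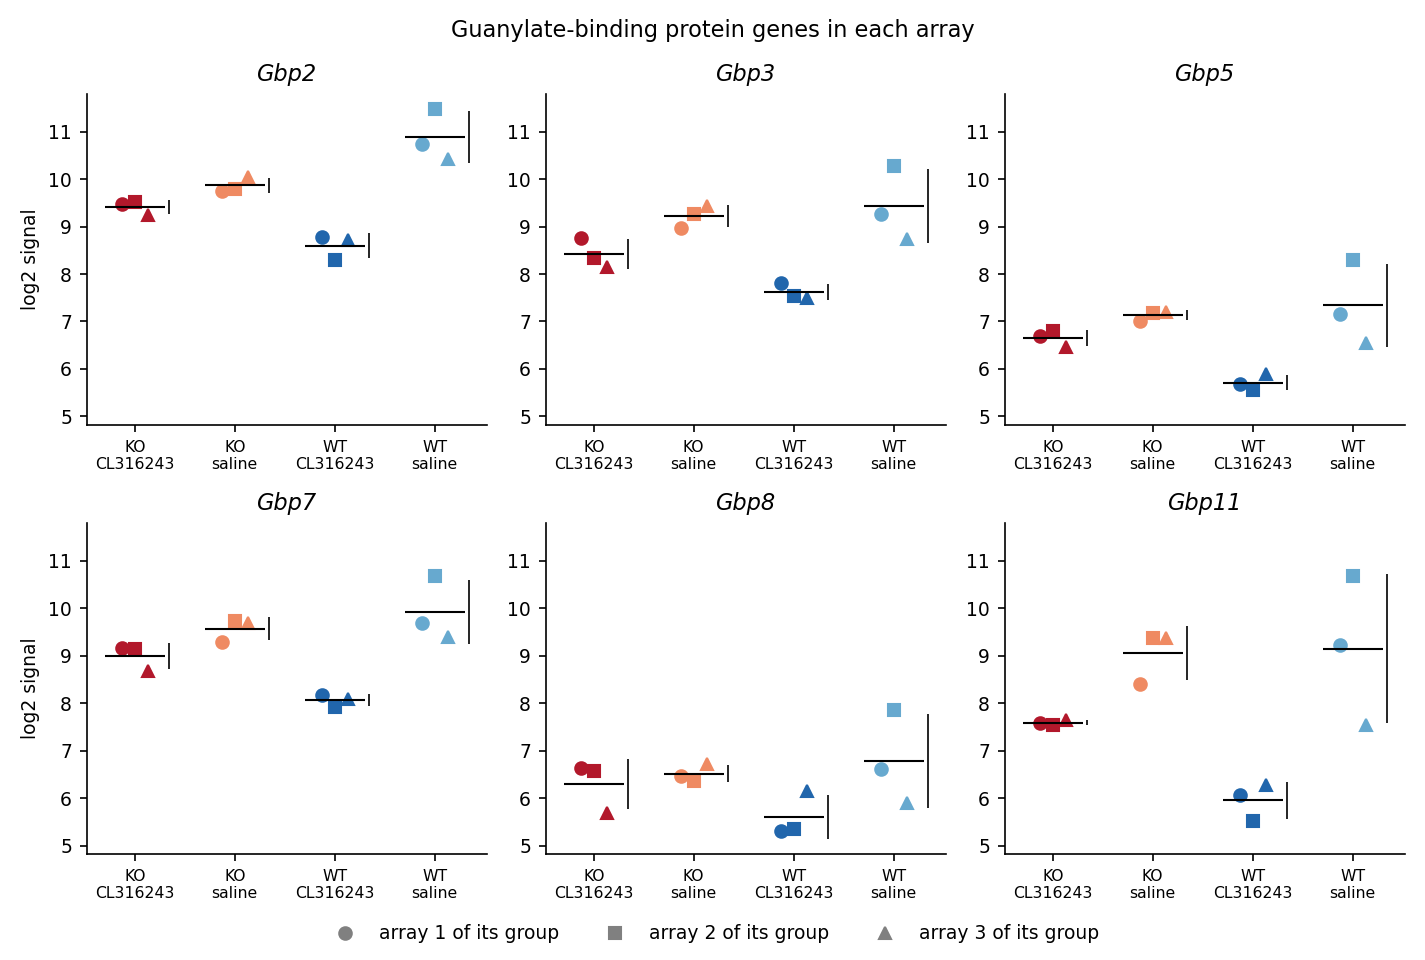
Log2 signal (y axis) of the 6 genes in each of 12 arrays, by group (x axis, KO = Cpt2 knockout, WT = wild type). Each symbol is 1 mouse, the horizontal line is the group mean and the vertical line beside it spans 1 SD on each side (n = 3). Wild-type CL316243 arrays have the lowest mean in every panel, and wild-type saline array 2 (square) is the highest of its group in all 6.

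Gbp2 had log2 signals of 9.47, 9.52 and 9.24 in knockout CL316243 arrays, 9.75, 9.80 and 10.05 in knockout saline arrays, 8.78, 8.30 and 8.72 in wild-type CL316243 arrays, and 10.75, 11.49 and 10.43 in wild-type saline arrays. No array of one group overlapped those of another. The group means were 9.41 ± 0.15, 9.87 ± 0.16, 8.60 ± 0.26 and 10.89 ± 0.54 (SD, n = 3 each, same order), so Gbp2 was the only member whose knockout and wild-type saline arrays were apart.

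Gbp7 had 9.17, 9.15 and 8.68 in knockout CL316243 arrays, 9.29, 9.74 and 9.69 in knockout saline arrays, 8.17, 7.93 and 8.10 in wild-type CL316243 arrays, and 9.70, 10.68 and 9.40 in wild-type saline arrays. Its wild-type CL316243 arrays were below the arrays of all other groups, and its saline arrays overlapped between genotypes. Gbp3 had 8.77, 8.34 and 8.15 in knockout CL316243 arrays, 8.97, 9.26 and 9.44 in knockout saline arrays, 7.81, 7.54 and 7.49 in wild-type CL316243 arrays, and 9.28, 10.28 and 8.73 in wild-type saline arrays. The lowest wild-type saline array (8.73) was just below the highest knockout CL316243 array (8.77), and wild types after CL316243 were again below all others. Gbp5 had 6.69, 6.81 and 6.46 in knockout CL316243 arrays, 7.01, 7.18 and 7.20 in knockout saline arrays, 5.68, 5.57 and 5.90 in wild-type CL316243 arrays, and 7.16, 8.29 and 6.55 in wild-type saline arrays. The SD of Gbp5 among wild-type saline mice was 0.88, against 0.10 among knockout saline mice, so saline-treated wild types spanned all values of the saline-treated knockouts.

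On chromosome 5, Gbp11 had 7.59, 7.54 and 7.65 in knockout CL316243 arrays, 8.40, 9.38 and 9.38 in knockout saline arrays, 6.07, 5.51 and 6.28 in wild-type CL316243 arrays, and 9.22, 10.68 and 7.54 in wild-type saline arrays. Knockout CL316243 arrays lay close together (SD 0.055), while wild-type saline arrays spanned 3.14 log2 units (SD 1.57). Gbp8 had 6.64, 6.58 and 5.70 in knockout CL316243 arrays, 6.47, 6.37 and 6.71 in knockout saline arrays, 5.32, 5.35 and 6.15 in wild-type CL316243 arrays, and 6.61, 7.85 and 5.90 in wild-type saline arrays. Its groups overlapped in all 4 comparisons, with array 3 the lowest of the knockout CL316243 group and the highest of the wild-type CL316243 group.

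In knockouts, CL316243 left all 6 members lower on average than saline, but none passed the test over all genes, and Gbp8 was at 0.093 without knockout CL316243 array 3. The differences (log2, standard error, limma) were -1.46 ± 0.60 for Gbp11 (adjusted p = 0.116), -0.80 ± 0.32 for Gbp3 (adjusted p = 0.103) and -0.58 ± 0.28 for Gbp7 (adjusted p = 0.178). Gbp5 differed by -0.48 ± 0.32 (adjusted p = 0.35), Gbp2 by -0.46 ± 0.23 (adjusted p = 0.198) and Gbp8 by -0.21 ± 0.43 (adjusted p = 0.793). Thus 0 of 6 members were called lower, where 10.2% of 15896 tested genes were, and 2 of 6 (Gbp3 and Gbp11) had an unadjusted p under 0.05. Each knockout CL316243 array was below each knockout saline array for 5 of 6 members, all but Gbp8, which was so for 25.2% of tested genes. The members' median difference was -0.53, against -0.06 over all tested genes. The count of calls rested on the arrays that set the spread: it was 4 (Gbp2, Gbp3, Gbp5 and Gbp11) when only the knockout groups were fitted, 3 (Gbp3, Gbp7 and Gbp11) without wild-type saline array 2 and 2 (Gbp3 and Gbp11) without wild-type saline array 3. Without knockout saline array 1 it stayed at 0. The share of all tested genes called in these other fits is not given here, so these counts have no background beside them.

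In wild types, where falls of Gbp2 and Gbp11 were known when the members were chosen, the CL316243 arrays were lower than the saline arrays for every member on average. The signal was 9.15-fold lower for Gbp11 (-3.19 ± 0.60 log2, standard error) and 4.89-fold lower for Gbp2 (-2.29 ± 0.23). It was 3.63-fold lower for Gbp7 (-1.86 ± 0.28), 3.53-fold lower for Gbp3 (-1.82 ± 0.32), 3.08-fold lower for Gbp5 (-1.62 ± 0.32) and 2.27-fold lower for Gbp8 (-1.18 ± 0.43). CL316243 and saline arrays were apart for 5 of 6 members, all but Gbp8, beside 26.7% of tested genes, and the median was -1.84 against -0.07 over all tested genes. Without wild-type saline array 2 the differences were smaller, at -2.43 for Gbp11, -1.99 for Gbp2, -1.48 for Gbp7, -1.39 for Gbp3, -1.15 for Gbp5 and -0.65 for Gbp8. The CL316243 difference in knockouts minus that in wild types, also a description, was 1.83 ± 0.32 for Gbp2, 1.73 ± 0.84 for Gbp11, 1.28 ± 0.39 for Gbp7, 1.14 ± 0.46 for Gbp5, 1.01 ± 0.45 for Gbp3 and 0.97 ± 0.61 for Gbp8. Leaving out knockout saline array 1 and wild-type saline array 2 together took the median of these 6 values to 0.62, against 1.21 with all arrays.

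**Figure D2:**
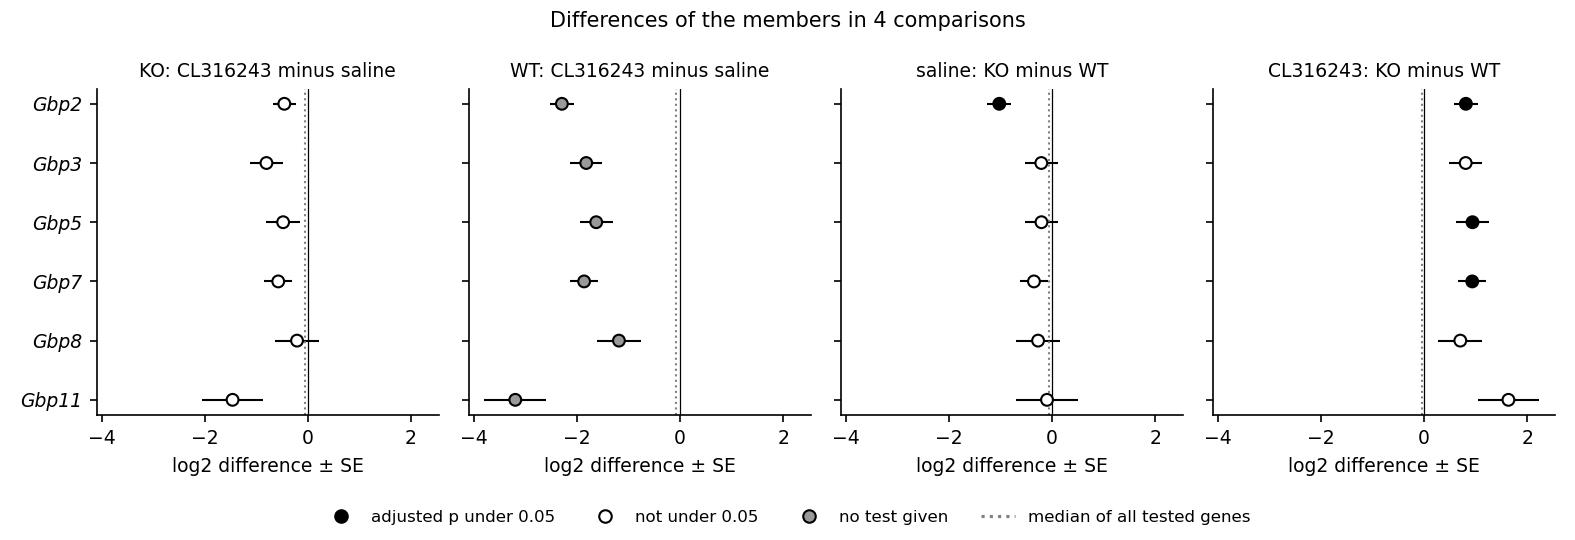
Log2 difference (x axis) of each member (y axis) in the 4 comparisons, with bars of 1 standard error of the fit on each side. Filled points passed the test (1 gene after saline and 3 after CL316243), open points did not, grey points carry no test, and the dotted line is the median of all tested genes, between -0.07 and -0.04.

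After saline, knockouts and wild types differed in 1 member. Gbp2 was 2.03-fold lower in knockouts (-1.02 ± 0.23 log2, standard error, adjusted p = 0.0185). The other 5 members differed by -0.35 ± 0.28 (Gbp7) to -0.10 ± 0.60 (Gbp11), with adjusted p between 0.413 and 0.93 and overlapping arrays. That made 1 of 6 members called lower beside 6.19% of tested genes, and 1 of 6 with all knockout arrays below all wild-type arrays beside 22.7%. The members' median was -0.24, against -0.05 over all tested genes. The comparison uses the wild-type saline arrays of the known one, whose falls of Gbp2 and Gbp11 favour lower values in knockouts here. Without knockout saline array 1 the Gbp2 difference was -0.96 (adjusted p = 0.0695), and without wild-type saline array 2 it was -0.72 (adjusted p = 0.0312) while the other 5 members turned to values between 0.03 and 0.67.

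After CL316243, all 6 members were higher in knockouts than in wild types, and 3 of 6 passed the test. Gbp2, Gbp5 and Gbp7 were 1.75-fold, 1.92-fold and 1.91-fold higher in knockouts. Their log2 differences were 0.81 ± 0.23 for Gbp2 (adjusted p = 0.0218), 0.94 ± 0.32 for Gbp5 (adjusted p = 0.0493) and 0.93 ± 0.28 for Gbp7 (adjusted p = 0.0265). Gbp11 differed most in size, by 1.64 ± 0.60 (adjusted p = 0.06), Gbp3 by 0.81 ± 0.32 (adjusted p = 0.0754) and Gbp8 by 0.70 ± 0.43 (adjusted p = 0.227). Of all tested genes 14.7% were called higher. Knockout arrays were above wild-type arrays for 5 of 6 members, all but Gbp8, where 21.7% of tested genes showed this. The median was 0.87, against -0.04 over all tested genes. This comparison shares the wild-type CL316243 arrays with the known one. The known falls of Gbp2 and Gbp11 there favour higher values in knockouts here, so the calls are no independent support. The count was 0 without knockout CL316243 array 1, knockout CL316243 array 2 or wild-type CL316243 array 2, 1 (Gbp2) without wild-type CL316243 array 3, and 5 (all but Gbp8) without wild-type saline array 2 or 3. Without knockout saline array 1, Gbp2 (adjusted p = 0.0287) and Gbp7 (adjusted p = 0.0293) kept their calls and Gbp5 did not (adjusted p = 0.0614). The share of all tested genes called in these fits with arrays left out is not given here. The differences themselves lay between 0.54 and 1.80 over all members and alternatives.

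The order of single arrays was shared by most members in some groups and not in others. Within the wild-type saline group, array 2 was the highest and array 3 the lowest for 6 of 6 members. Array 3 was the lowest of the knockout CL316243 group for 5 of 6 members, while arrays 1, 2 and 3 were its highest for 3, 2 and 1 of them. In the knockout saline group array 1 was the lowest and array 3 the highest for 5 of 6. In the wild-type CL316243 group array 2 was the lowest for 4 of 6, and arrays 1 and 3 were each the highest for 3 and the lowest for 1. The mean over members, each centred on its own mean over 12 arrays, was -0.02, -0.08 and -0.43 in knockout CL316243 arrays, 0.24, 0.55 and 0.67 in knockout saline arrays, -1.10, -1.38 and -0.97 in wild-type CL316243 arrays, and 0.71, 1.80 and 0.02 in wild-type saline arrays. All 3 wild-type CL316243 arrays were below the other 9. Across the 12 arrays, which share the 4 groups, Gbp3 and Gbp7 had the closest patterns (root mean square difference of centred values 0.15, Pearson r = 0.98). Gbp8 and Gbp11 were the least close by the root mean square difference (0.98, r = 0.84), and Gbp2 and Gbp8 had the lowest Pearson r (0.79).

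Rows that match several genes hold the rest of the family. Among 10 such rows with a guanylate-binding protein gene, 6 match only genes of this family. In these 6 rows the CL316243 difference was -0.77 to -0.09 in knockouts and -2.06 to -0.18 in wild types. The knockout difference was -0.74 to 0.15 after saline and 0.24 to 0.99 after CL316243. All knockout CL316243 arrays were above all wild-type CL316243 arrays in 6 of 6 rows, where 21.7% of tested genes showed this. The row with the smallest of these differences (0.24) was above the level of the filter on dim genes in 9 arrays only. Of the rows that also match genes outside the family, only that shared with Vmn2r54 and Vmn2r55 (0.03) did not show this separation. Since these rows may read the same transcripts as the members, they are no independent count.

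Other GTPases of the interferon response were read in the same way. The counts of this and the following lists stand beside the share of all tested genes called lower and higher, which was 10.2% and 7.75% for CL316243 in knockouts and 18.8% and 11.0% for CL316243 in wild types. For knockouts against wild types it was 14.8% and 14.7% after CL316243 and 6.19% and 5.44% after saline. Of 7 GTPases tested, CL316243 raised 0 and lowered 1 in knockouts (median -0.17) and raised 0 and lowered 3 in wild types (median -0.46), and knockouts exceeded wild types in 4 after CL316243 (median 1.17) with 0 lower. After saline 0 were higher and 1 lower in knockouts (median 0.27). The 1 lowered and the 1 lower gene, Irgq in both cases, were not called without knockout saline array 1. Without that array 1 GTPase, Mx1, was higher in knockouts after saline (1.67, adjusted p = 0.017). After saline 1 was higher and 0 lower without wild-type saline array 2, and 2 were higher and 0 lower without both arrays (median 1.20). Irgm1, a GTPase that regulates autophagy and the membrane loading of its relatives, had 8.10, 8.09 and 7.59 in knockout CL316243 arrays, 7.75, 8.36 and 8.35 in knockout saline arrays, 6.86, 6.71 and 6.71 in wild-type CL316243 arrays, and 8.12, 9.01 and 7.57 in wild-type saline arrays. As with 5 of 6 members, all but Gbp8, the 3 wild-type CL316243 arrays were the lowest. How many of all tested genes had these arrays lowest was not counted. Irgm1 fell in wild types after CL316243 (-1.48 ± 0.30 log2, adjusted p = 0.00419) and was higher in knockouts than in wild types after CL316243 (1.17 ± 0.30, adjusted p = 0.0149). Its CL316243 difference in knockouts was -0.23 ± 0.30 (adjusted p = 0.674). The antiviral GTPases Mx1 (1.75 ± 0.37, adjusted p = 0.00513) and Mx2 (1.23 ± 0.34, adjusted p = 0.0189) were likewise higher in knockouts after CL316243, while their wild-type CL316243 differences of -0.53 (adjusted p = 0.322) and -0.45 (adjusted p = 0.367) did not pass. Igtp and Iigp1 had no row of their own.

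Upstream of the members, the 2 interferon transcripts tested, Ifng and Ifnb1, passed no test. Ifng had log2 signals of 5.26, 5.36 and 5.19 in knockout CL316243 arrays, 5.41, 5.36 and 5.61 in knockout saline arrays, 5.21, 5.47 and 5.65 in wild-type CL316243 arrays, and 5.60, 6.12 and 5.16 in wild-type saline arrays. The highest signal was that of wild-type saline array 2, and the 4 differences lay between -0.19 and -0.17 with adjusted p from 0.513 to 0.596. Most Ifng signals were close to the level of the filter on dim genes. Gbp8, whose lowest signals were 5.32 and 5.35, passed that level in 10 arrays only. So near this level, the absence of a call cannot show that Ifng was unchanged. Among 9 receptors and signalling genes, CL316243 raised 1 and lowered 6 in wild types (median -0.55) and raised 1 and lowered 2 in knockouts (median -0.10). The count lowered in knockouts was 1 without knockout saline array 1. In knockouts against wild types 0 differed after saline (median 0.03), and 3 were higher and 0 lower after CL316243 (median 0.19). Ifngr2, the second chain of the interferon gamma receptor, fell in wild types by 0.78 on the log2 scale (adjusted p = 6.00e-04) and was higher in knockouts after CL316243 (0.79 ± 0.11, adjusted p = 6.66e-04). Ifngr1, the chain that binds the ligand, fell in wild types by 0.60 (adjusted p = 7.87e-04) and was 0.36 ± 0.09 higher in knockouts after CL316243 (adjusted p = 0.0127). In knockouts the CL316243 differences were -0.10 for Ifngr2 (adjusted p = 0.584) and -0.27 for Ifngr1 (adjusted p = 0.0642). Stat2 fell in wild types after CL316243 (-0.72 ± 0.20, adjusted p = 0.0194) and was higher in knockouts after CL316243 (0.97 ± 0.20, adjusted p = 0.00479). Without wild-type saline array 2 its fall in wild types was -0.50 (adjusted p = 0.0689).

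Of 8 interferon regulatory factors, CL316243 lowered 3 and raised 0 in knockouts (median -0.33) and lowered 5 and raised 0 in wild types (median -0.32). Without wild-type saline array 2 the count in wild types was 2. Knockouts exceeded wild types in 2 after saline (median 0.17) and in 4 after CL316243 (median 0.35), and were lower in 0. Irf1, the factor that carries much of the interferon gamma response, fell in wild types (-0.85 ± 0.16, adjusted p = 0.0023). Its CL316243 difference in knockouts was -0.46 ± 0.16 (adjusted p = 0.0673) and its knockout difference after CL316243 was 0.21 ± 0.16 (adjusted p = 0.317). Irf7, the amplifier of type I interferon, fell after CL316243 in knockouts (-0.68 ± 0.20, adjusted p = 0.0405) and in wild types (-0.74 ± 0.20, adjusted p = 0.0186), and was higher in knockouts after saline (0.97 ± 0.20, adjusted p = 0.0148) and after CL316243 (1.03 ± 0.20, adjusted p = 0.00394). Its fall in wild types was -0.62 (adjusted p = 0.0732) without wild-type saline array 2.

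Most other targets of interferon gamma fell in wild types. This list was chosen with earlier results of these data known, so its counts are a description. For the same reason the adjusted p-values of its genes are no independent tests. Of 17 tested, CL316243 lowered 11 and raised 0 in wild types (median -0.73). In knockouts it lowered 2 and raised 0 (median -0.41). Knockouts exceeded wild types in 1 target after saline (median -0.08) and in 5 after CL316243 (median 0.48), and in neither case was a target lower. Without wild-type saline array 2 the targets lowered in knockouts numbered 8, and those higher in knockouts 3 after saline and 8 after CL316243. The targets lowered in knockouts numbered 4, and those higher after saline 0, without knockout saline array 1. Centring each array again on its median put the genes called lower and higher at 4.88% and 8.59% in knockouts after CL316243, at 9.17% and 15.1% in wild types after CL316243, and at 18.6% and 12.3% in knockouts against wild types after CL316243. The antigen transporter gene Tap1 fell in wild types (-1.26 ± 0.26, adjusted p = 0.00429) and was higher in knockouts after CL316243 (0.87 ± 0.26, adjusted p = 0.0284). Psmb9, an immunoproteasome subunit, fell in wild types (-1.26 ± 0.28, adjusted p = 0.00682), and its knockout difference after CL316243 was 0.48 ± 0.28 (adjusted p = 0.217, and 0.0259 without wild-type saline array 2). The T cell chemokine Cxcl9 also fell in wild types (-1.56 ± 0.39, adjusted p = 0.0121). Apol6 and Tnfsf10, which encodes the death ligand TRAIL, were the 2 targets that fell in both genotypes with all arrays fitted. Apol6 differed by -1.16 ± 0.24 in knockouts (adjusted p = 0.00773) and by -3.18 ± 0.24 in wild types (adjusted p = 1.19e-05). Tnfsf10 differed by -1.67 ± 0.22 in knockouts (adjusted p = 8.83e-04) and by -2.70 ± 0.22 in wild types (adjusted p = 1.81e-05).

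Targets of type I interferon were described beside them. Of 20 tested, knockouts exceeded wild types in 5 after saline (median 0.65) and in 18 after CL316243 (median 1.13), with 0 lower. CL316243 lowered 9 in wild types (median -0.59) and 0 in knockouts (median -0.20), and raised 0 in either. Without wild-type saline array 2 it lowered 4 in wild types and 1 in knockouts, and 1 target was lower in knockouts after CL316243; without both arrays that stood apart, 10 were higher in knockouts after saline. Ifit3, an antiviral protein, fell in wild types (-1.78 ± 0.38, adjusted p = 0.00484) and was higher in knockouts after CL316243 (2.14 ± 0.38, adjusted p = 0.00212). Its knockout difference after saline was 1.06 ± 0.38 (adjusted p = 0.0892), where the 6 members had values from -1.02 to -0.10. Without wild-type saline array 2 this difference was 1.25 for Ifit3, and it was above 0 for every member but Gbp2. The difference between this list and the members was not tested.

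**Figure D3:**
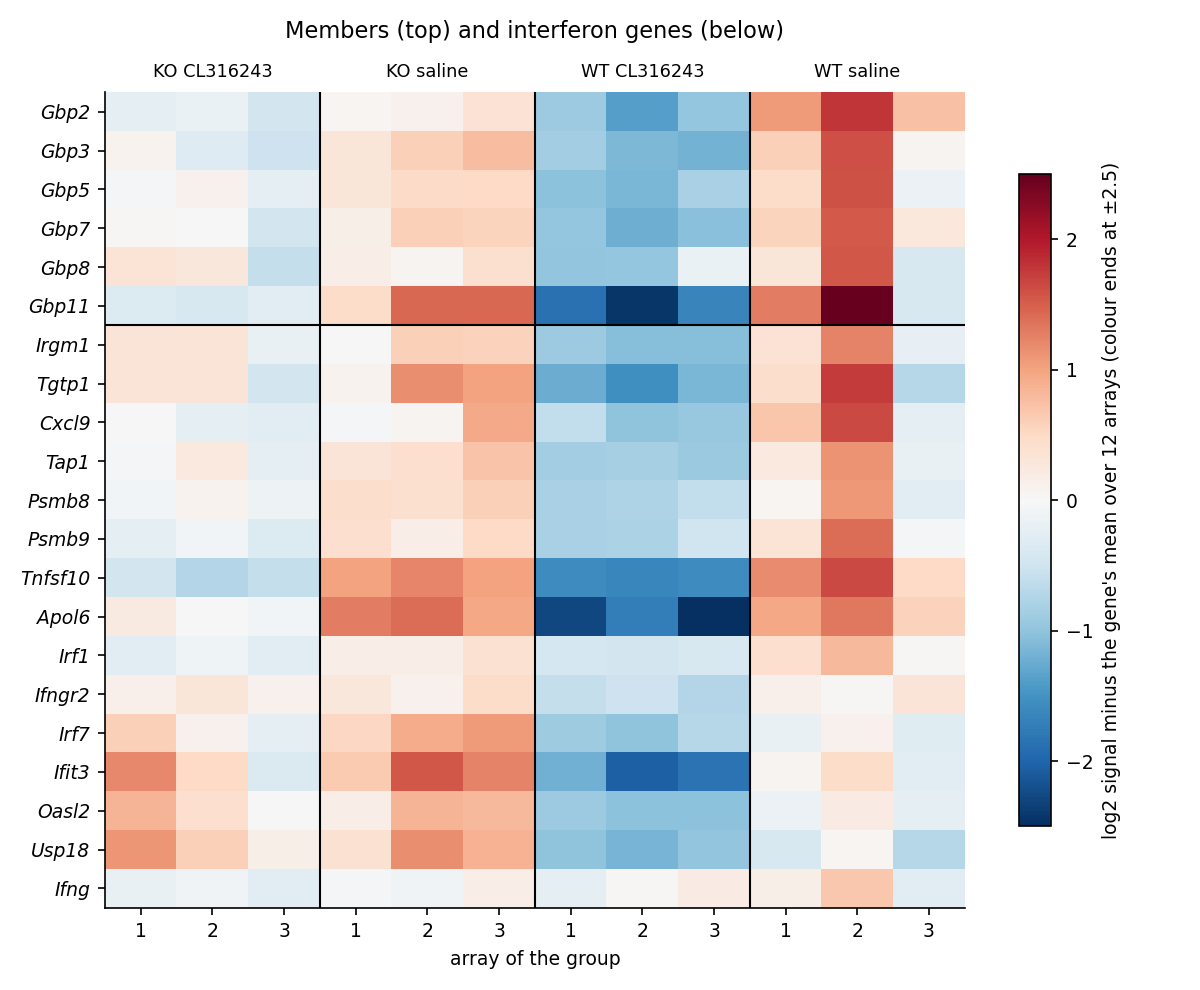
Log2 signal minus each gene's mean over 12 arrays (colour, ending at 2.5 on either side) for the 6 members (top) and 15 interferon genes (below), with arrays 1 to 3 of each group across. The wild-type CL316243 columns are blue for all members and wild-type saline array 2 is red for all of them.

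Markers of cells that release or answer interferon were counted beside the same shares of all tested genes. Their lists were also chosen with earlier results of these data known, so here too the adjusted p-values are no independent tests. Of 15 T and NK cell markers, CL316243 lowered 4 and raised 0 in knockouts, and lowered 3 and raised 1 in wild types; knockouts had 3 higher and 0 lower after saline, and 4 higher and 1 lower after CL316243. In wild types that is 3 of 15 beside 18.8% of all genes lowered, and 1 of 15 beside 11.0% raised. Without knockout saline array 1 CL316243 lowered 2 in knockouts and raised 0 in wild types, and 1 was higher in knockouts after saline, a count that was 6 without wild-type saline array 2. Their mean centred signal ranged from -0.42 to 0.44 in knockout CL316243 arrays, 0.24 to 0.84 in knockout saline arrays, -0.56 to -0.42 in wild-type CL316243 arrays and -0.42 to 0.54 in wild-type saline arrays. Within its group wild-type saline array 2 was the highest here too. None of the markers is at 0, since array signals have no true zero. The T cell receptor chain gene Cd3e had no called difference, with -0.16 ± 0.41 in knockouts after CL316243 (adjusted p = 0.842) and -0.82 ± 0.41 in wild types (adjusted p = 0.159). The NK cell receptor gene Ncr1 fell after CL316243 in knockouts (-1.89 ± 0.25, adjusted p = 9.66e-04) and in wild types (-1.23 ± 0.25, adjusted p = 0.0042). Of 12 macrophage and dendritic cell markers, 7 were higher and 0 lower in knockouts after saline, and 8 were higher and 0 lower after CL316243. CL316243 raised 2 and lowered 1 in knockouts, and raised 0 and lowered 1 in wild types. Without knockout saline array 1 the count higher after saline was 1, and without wild-type saline array 2 CL316243 lowered 2 in knockouts and raised 2 and lowered 0 in wild types. Their mean centred signal was 0.22 to 0.38 in knockout CL316243 arrays, 0.12 to 0.48 in knockout saline arrays, -0.50 to -0.33 in wild-type CL316243 arrays and -0.55 to 0.12 in wild-type saline arrays. For B cells 0 of 5 markers differed in any of the 4 comparisons. Of 11 brown adipocyte markers, 1 was higher and 7 lower in knockouts after CL316243. After saline 1 was higher and 2 lower, counts that were both 0 without knockout saline array 1. Without wild-type saline array 2 these saline counts were 1 and 1, and without both arrays 1 and 0. CL316243 raised 2 and lowered 3 of the markers in knockouts, and raised 4 and lowered 1 in wild types. Without both arrays it raised 5 and lowered 0 in wild types. Of 11 endothelial markers, 2 were higher and 5 lower in knockouts after CL316243, and 0 differed after saline. CL316243 raised 4 and lowered 2 of them in knockouts, and raised 6 and lowered 3 in wild types. Of 7 fibroblast markers, 6 were higher in knockouts after saline and 7 after CL316243, and CL316243 raised 1 in knockouts and 0 in wild types. Skeletal muscle markers, of which 0 of 8 were called, ranged from -0.24 to 1.45 in knockout CL316243 arrays, -2.08 to 1.05 in knockout saline arrays, -1.69 to 0.38 in wild-type CL316243 arrays and -2.24 to 1.86 in wild-type saline arrays. In the wild-type saline group the array with the lowest muscle signal was array 2 and the one with the highest was array 3, the reverse of the members' order. In the knockout saline group array 1 had the lowest muscle signal and was also the lowest for 5 of 6 members. The part of these cell types in the members' values was not tested.

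**Figure D4:**
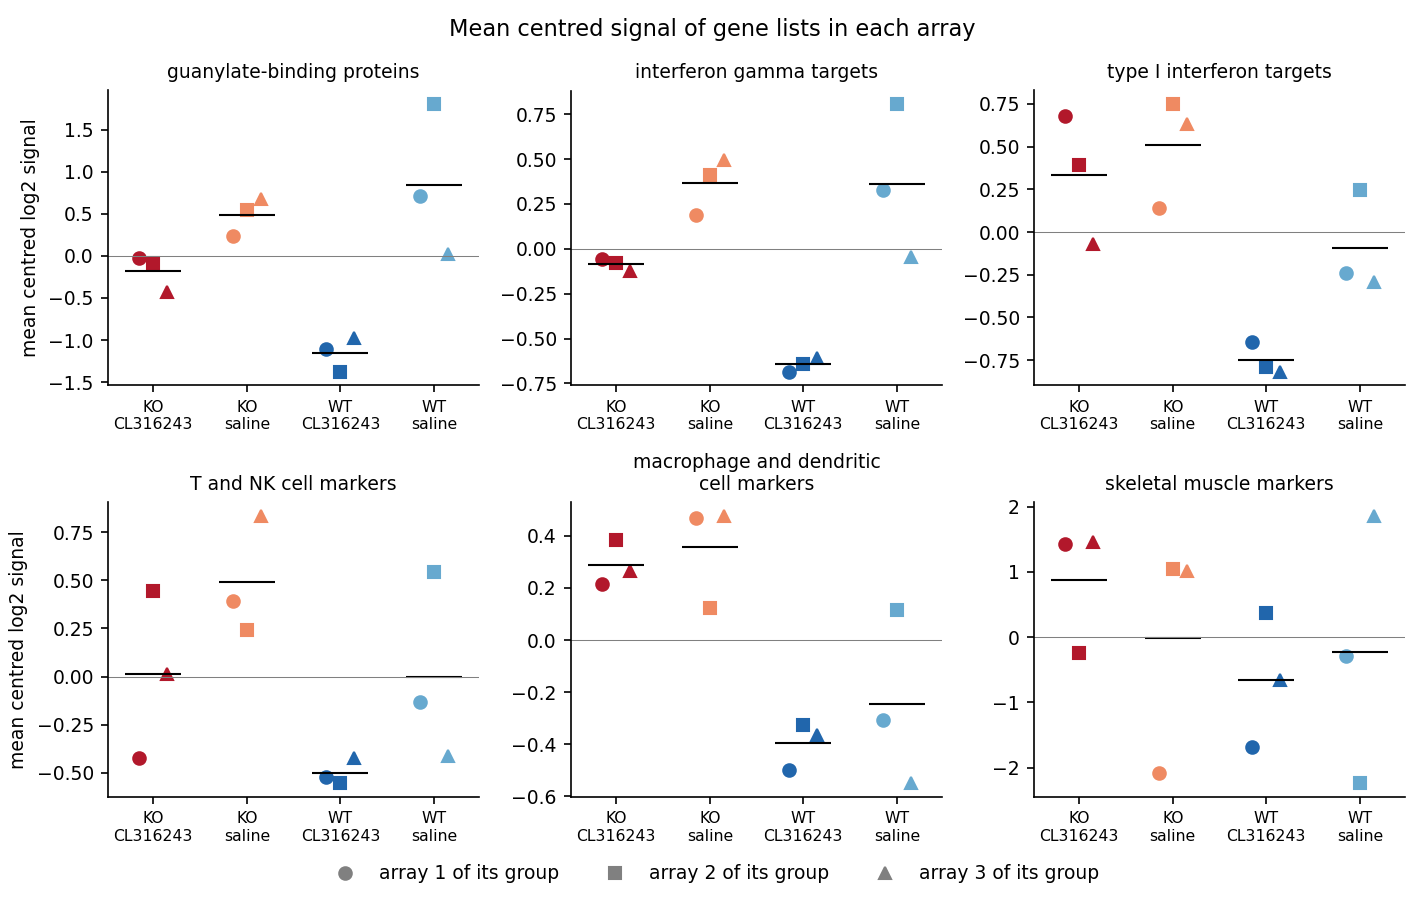
Mean centred log2 signal (y axis, scales differ between panels) of the 6 members and of 5 gene lists in each array, by group (x axis). Each symbol is 1 mouse and the line is the group mean. Wild-type saline array 2 is the highest of its group for the members and for every list but skeletal muscle, where it is the lowest.

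Genes with the most similar pattern over the 12 arrays were found by the root mean square difference of centred log2 values among tested genes outside the family members. The nearest to Gbp5 were Tap1 (0.20), Irgm1 (0.21) and Psmb9 (0.21), and the nearest to Gbp7 were Irgm1 (0.24), Trim21 (0.24) and Trp53inp1 (0.25). Gbp3 was nearest to Cxcl9 (0.25), Trp53inp1 (0.26) and Irgm1 (0.29). For Gbp8 they were Psmb9 (0.28), H2-M2 (0.32) and Psmb8 (0.32). Gbp2 was nearest to 5830467E07Rik (0.27), Cxcl9 (0.39) and Trp53inp1 (0.39). Gbp11 had no gene as near, with Tnfsf10 (0.54), BC023105 (0.60) and Tgtp1 (0.63) the closest. This measure grows with the size of a gene's differences, and Gbp11 had the largest CL316243 differences of the members. The Pearson r of Gbp11 with the other members was 0.84 to 0.97. Irgm1 was among the nearest of 3 members, as was Trp53inp1. 5830467E07Rik was picked for its nearness to Gbp2 over these same arrays, so like differences follow from that choice. Its values were -0.72 for the knockout difference after saline, 1.04 for that after CL316243 and -2.21 for the CL316243 difference in wild types.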

How the data were processed

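The table deposited by the authors holds log2 signals per transcript cluster of an Affymetrix mouse exon array, made by RMA in Partek on genome build mm9, per the submitters' processing notes, and were used as deposited. Rows of 1 gene were kept, with the row of the highest mean where a gene had several; each member had 1. Genes that exceeded an array's 25th percentile over named genes in 3 arrays or more (15896) were fitted with limma 3.58.1 in R 4.3.3, with 1 mean per group over all 12 arrays and empirical Bayes moderation. Adjusted p-values (Benjamini-Hochberg, all 15896 genes) under 0.05 are called. The members and gene lists were chosen with earlier results of these data known; named are the members, up to 6 genes a list with the largest CL316243 differences, 9 signalling genes and the 3 nearest genes per member; other named list genes were chosen after their values were seen. Alternatives changed scaling, filter, row choice, moderation, threshold and arrays. No batch is given, each array is a separate mouse, and 3 arrays per group limit precision. Promoter sequences are from RefSeq (GRCm38.p6); 4 of 6 members matched. Tables and figures were made in Python 3.11.15.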

Additional observations from a re-analysis of the deposited data

Results flagged for a closer look

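The mean genotype difference was above 0 after CL316243 and below 0 after saline in 6 of 6 members, and in 4 of them single arrays followed it too. For each of these 4, every knockout CL316243 array was above the wild-type CL316243 mean and every knockout saline array was below the wild-type saline mean. The saline arrays of the genotypes still overlapped for Gbp5, Gbp7 and Gbp8, and the CL316243 arrays for Gbp8. The share of all tested genes with such a pattern was not counted, so 4 of 6 cannot be called particular to the members. The knockout difference after CL316243 minus that after saline was 1.83 for Gbp2, 1.28 for Gbp7, 1.14 for Gbp5 and 0.97 for Gbp8 (log2). The difference was not tested, because it contains the wild-type CL316243 comparison that was known when the members were chosen. Without wild-type saline array 2 it was 1.53 for Gbp2, 0.91 for Gbp7, 0.66 for Gbp5 and 0.44 for Gbp8, and the saline difference was then above 0 for Gbp7 (0.026), Gbp5 (0.27) and Gbp8 (0.26), so of these 4 Gbp2 alone still pointed in opposite directions.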

How the results depend on the processing

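The count of members called for the CL316243 difference in knockouts was 0 with all arrays, 4 when only the groups compared were fitted, and 0 to 3 when single arrays were left out. For the knockout difference after saline it was 1, and 0 at an adjusted p under 0.01 or with only the groups compared, and 0 to 1 when single arrays were left out. For the knockout difference after CL316243 it was 3, and 0 at an adjusted p under 0.01 or by ordinary least squares, 5 at an adjusted p under 0.1 or with only the groups compared, and 0 to 5 when single arrays were left out. With knockout saline array 1 and wild-type saline array 2 both left out, which was chosen after seeing the data, these counts were 3, 0 and 5, and the median of the CL316243 difference in knockouts minus that in wild types was 0.62. That median lay between 0.79 and 1.54, and the median CL316243 difference in wild types between -2.15 and -1.44, when single arrays were left out. The knockout difference after saline turned positive without wild-type saline array 2: over single arrays left out it ranged from -0.56 to 0.22 for Gbp3, -0.60 to 0.27 for Gbp5, -0.62 to 0.026 for Gbp7, -0.71 to 0.26 for Gbp8 and -0.90 to 0.67 for Gbp11, which was also 0.23 without knockout saline array 1. With both arrays left out these were 0.35, 0.33, 0.17, 0.28 and 0.997. For Gbp8 the CL316243 difference in knockouts ranged from -0.38 to 0.093 over single arrays left out. Gbp5 after CL316243 lost its call most often, with 8 of 23 alternatives keeping it, against 19 for Gbp2 and 18 for Gbp7; its adjusted p was 0.0515 after median centring and 0.0549 with no filter. Replicate numbers did not pair the arrays, since 7 of 18 same-number pairs correlated above 0.1 (r from -0.30 to 0.48); with the replicate block the counts stayed at 0, 1 and 3 and the medians at -1.84 and 1.21. Median centring moved the median of all tested genes in wild types after CL316243 to 0.05, against -0.07 as deposited, and left that of the members at -1.72. The same left-out arrays were tried for the gene lists after seeing the data, and the report gives the counts that moved. The cause of these changes was not tested. Apart from median centring, the share of all tested genes called is not given for these alternatives. The precision is limited by 3 arrays per group.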

Other observations

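Genes that restrain interferon signalling did not move as one. Socs1, the brake on Jak kinases, had differences from -0.20 to 0.04 in the 4 comparisons, none of them called (adjusted p from 0.378 to 0.893). Socs3 rose after CL316243 in knockouts (0.87 ± 0.15 log2, standard error, adjusted p = 0.00381), and its wild-type difference was 0.00 ± 0.15 (adjusted p = 0.993). Usp18, which removes ISG15 and damps type I interferon receptors, was higher in knockouts after saline (1.17 ± 0.26, adjusted p = 0.0188) and after CL316243 (1.67 ± 0.26, adjusted p = 0.00117). Of all 9 brakes, CL316243 raised 4 and lowered 0 in knockouts, and raised 4 and lowered 1 in wild types. It raised 1 in knockouts without knockout saline array 1.

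Among 12 genes of inflammasomes and cell-autonomous defence, 7 were higher and 1 lower in knockouts after saline, and 8 were higher and 0 lower after CL316243. The counts after saline were 3 and 0 without knockout saline array 1, and 5 and 0 without wild-type saline array 2. Casp4, the sensor of cytosolic lipopolysaccharide that guanylate-binding proteins help to engage, fell in wild types after CL316243 (-0.80 ± 0.21, adjusted p = 0.0156, and 0.064 without wild-type saline array 2) and was higher in knockouts after CL316243 (1.74 ± 0.21, adjusted p = 3.10e-04). Gsdmd, which forms the pore that it opens, fell in wild types (-0.45 ± 0.08, adjusted p = 0.00249) and was higher in knockouts after CL316243 (0.38 ± 0.08, adjusted p = 0.00687).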
